A study of Mus musculus with 7 samples.

Results

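The genes described here are the D-type cyclins, the kinases they activate, the inhibitors of these kinases and the retinoblastoma gene. The 10 members, *Ccnd1*, *Ccnd2*, *Ccnd3*, *Cdk4*, *Cdk6*, *Cdkn1b*, *Cdkn1c*, *Cdkn2c*, *Cdkn2d* and *Rb1*, were found by their symbols among the 38124 genes of the count table, and none was missing. Their expression was measured by RNA-Seq of the brightest red fluorescent cells (High RFP) sorted from the neocortex of heterozygous *Tis21*-CreERT2 mouse embryos. In this line CreERT2, a Cre recombinase that acts once tamoxifen is given, is driven from the *Tis21* locus, where it replaces part of the gene. The locus is active in progenitors that divide to give neurons or basal progenitors (BPs). Every embryo carried this allele and received tamoxifen, and both constructs switch on RFP in cells that Cre has recombined. The neocortex was electroporated in utero at E13.5 with either the control construct (3 libraries, replicates 1, 2 and 4) or the conditional Sox9 expression construct (4 libraries, replicates 1, 2, 3 and 4), and cells were sorted at E15.5, 48 hr later. Cortices of several embryos and mothers were pooled for a sort, so a library is not a single animal.

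D-type cyclins bind CDK4 and CDK6 in the G1 phase of the cell cycle, and the active kinases phosphorylate the retinoblastoma protein, which then releases the E2F factors that drive genes of DNA replication. Inhibitors of the INK4 family bind the kinases alone, whereas those of the CIP/KIP family, which include p27 and p57, bind cyclin-CDK complexes. In the developing neocortex, cyclin D2 is a known G1 cyclin of progenitors, and p27 and p57 are known from progenitors that leave the cell cycle and become neurons.

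The control libraries held between 10465562 and 12907778 counts on genes, and those labelled Sox9 between 4429704 and 10520214. All 4 libraries labelled Sox9 had more genes with a count than any control library, at 24219 to 27370 against 23387 to 23791. *Sox9* mRNA, the transcript of the expressed gene, did not mark the libraries labelled Sox9, since it was at 34.6, 89.2 and 67.9 CPM in the controls and 50.8, 41.1, 31.0 and 37.1 CPM in the others (log2 fold change -0.68, SE 0.25, adjusted p = 0.0493). The groups are therefore called by their labels. CPM are counts scaled to library size by the TMM method. Its factors were 0.893 to 0.941 in the controls and 1.01 to 1.10 in the others, without overlap. Levels compared between the groups depend on this scaling. The cells are labelled as neural progenitors, but neuronal markers such as *Tubb3* and *Dcx* were abundant in every library, with 11700 to 16100 CPM summed over 8 genes. Marker genes of radial glia summed to 263 to 1070 CPM over 8 genes, and those of intermediate progenitors to 128 to 246 CPM over 6 genes.

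The promoters of *Cdk4* and *Cdk6* are shown because these are the 2 kinases of the set and their windows held motifs of Myc-type and SOX factors. RefSeq windows of GRCm38.p6, from 250 bases before to 50 bases after a transcription start, were matched for 6 of the 10 members, with 8 windows in all. The members without a window were *Ccnd1*, *Ccnd2*, *Cdkn1c* and *Rb1*. Capitals mark CACGTG, the E-box bound by Myc and its partners, and AACAAT, a core sequence bound by SOX proteins. The *Cdk4* window spans chr10:127063285-127063584 on the plus strand and the *Cdk6* window chr5:3343643-3343942 on the plus strand.
Cdk4: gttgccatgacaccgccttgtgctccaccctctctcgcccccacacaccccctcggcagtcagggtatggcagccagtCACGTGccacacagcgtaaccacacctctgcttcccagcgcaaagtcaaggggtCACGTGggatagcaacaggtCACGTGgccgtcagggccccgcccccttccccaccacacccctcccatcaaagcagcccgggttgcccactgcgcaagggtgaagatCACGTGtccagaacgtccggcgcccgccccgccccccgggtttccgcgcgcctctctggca
Cdk6: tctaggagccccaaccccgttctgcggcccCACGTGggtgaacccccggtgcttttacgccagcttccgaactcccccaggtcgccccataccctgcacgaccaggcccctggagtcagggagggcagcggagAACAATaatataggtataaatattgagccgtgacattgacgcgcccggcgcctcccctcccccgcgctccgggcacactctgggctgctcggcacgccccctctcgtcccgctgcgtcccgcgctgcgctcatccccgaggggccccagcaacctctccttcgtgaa
The *Cdk4* window held 4 copies of CACGTG and no AACAAT. The *Cdk6* window held 1 copy of each. Both strands were searched, and CACGTG reads the same on both. CACGTG was present in 3 of the 8 member windows, those of both kinases and 1 of the 2 windows of *Cdkn2c*, and in 7.15% of all 32851 promoter windows, and 8 windows, or 0.0244%, held at least 4 copies. AACAAT was present in 10.7% of all windows and in 1 of the 8 member windows. The E2F motifs TTTCCCGC, TTTCGCGC, TTTGCCGC and TTTGGCGC were found in none of the 8 member windows, in 2.26% of all windows and in 8 of the 19 windows of the E2F target genes described further on.

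Of the 10 members, *Cdkn1c* was higher in the libraries labelled Sox9 and *Ccnd2* and *Cdk6* were lower, whereas the other 7 did not pass the test. The CIP/KIP inhibitor gene *Cdkn1c* rose 3.79-fold in mean level, the cyclin gene *Ccnd2* fell to a level 2.18-fold below that of the controls, and the kinase gene *Cdk6* to one 2.42-fold below. All 10 passed the filter on low counts, and the test was edgeR's quasi-likelihood test (two-sided, Benjamini-Hochberg adjustment over all 16522 genes tested, called at an adjusted p under 0.01). Of all genes tested, 11.3% were called higher and 3.43% lower, and of the 14267 protein-coding genes tested 9.96% and 3.88%. The count of 1 higher member is near the share of higher genes. At an adjusted p under 0.05, 1 member was called higher, against 21.9% of all genes tested, and 4 were called lower, against 10.8%. Among the 8691 protein-coding genes whose average log2 CPM was at least 3, a level that 8 members including all those called had, 2.15% were called higher and 5.85% lower. The CPM of both groups did not overlap for 6 of the 10 members, against 39.3% of all genes tested, and for 5 of the 8 at the higher level, against 33.3%. The median log2 fold change was -0.31 over the 10 members, -0.003 over all genes tested and -0.20 over the protein-coding genes at the higher level.

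**Figure D1:**
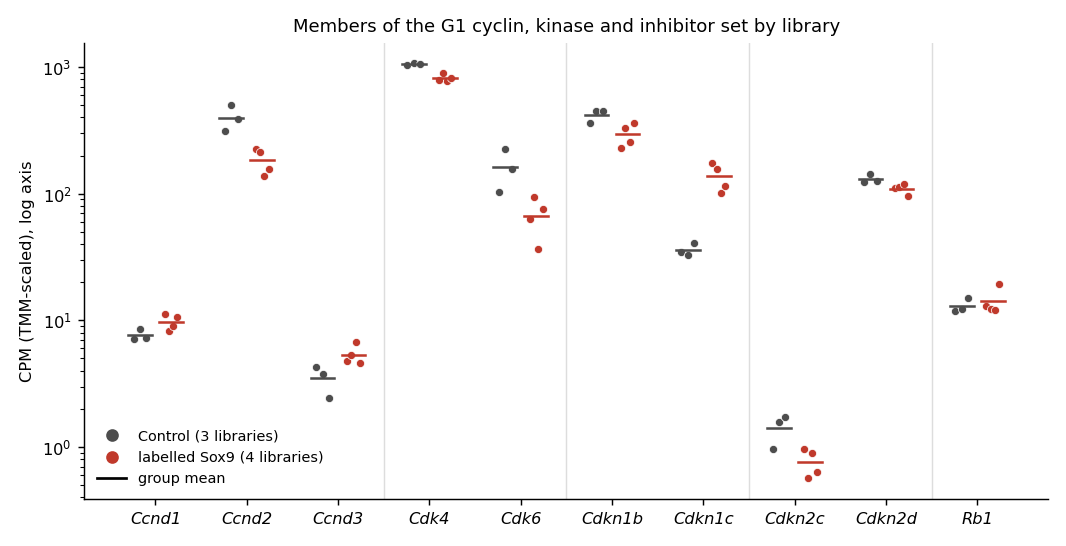
CPM of each member in each library on a log axis, with 3 control libraries in grey, 4 libraries labelled Sox9 in red, and a line at each group mean. *Cdkn1c* is above every control and *Ccnd2* and *Cdk6* below every control in all 4 libraries labelled Sox9, whereas *Cdkn1b*, *Cdkn2c*, *Ccnd1* and *Rb1* overlap.

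*Cdkn1c* (ENSMUSG00000037664, chr7:143458339-143461050, minus strand, mm10) encodes p57, an inhibitor of cyclin-CDK complexes and an imprinted gene. Its level was 34.7, 32.8 and 40.99 CPM in control replicates 1, 2 and 4, and 174, 156, 102 and 115 CPM in the libraries labelled Sox9. The lowest of the latter lay far above the highest control, and replicates 1 and 2 lay above replicates 3 and 4. The group means were 36.2 ± 4.27 CPM (SD, n = 3) and 137 ± 34.0 CPM (SD, n = 4), and the log2 fold change was 1.92 (SE 0.18, edgeR adjusted p = 3.71e-05). These values rested on 363 to 403 counts per control library and 549 to 1652 counts per library labelled Sox9. Of the 8691 protein-coding genes at the higher level, 51, or 0.587%, had a higher log2 fold change. *Cdkn1c* was called in all 17 other settings, with log2 fold changes from 1.81 to 2.11. Its exons share 625 bases with the antisense gene *Gm44732*, and reads from these cannot be told apart unless strand was used in counting, which the methods do not state.

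Several marker lists of other cell types had higher summed levels in the same libraries. Their counts of called genes stand beside the 11.3% of all genes called higher, and counts of 1 of 5 or 1 of 6 are near that share. The summed level of 5 oligodendrocyte precursor markers was 0.61 to 1.39 CPM in the controls and 9.50 to 22.8 CPM in the libraries labelled Sox9, and 4 of the 4 tested were called higher. *Olig2*, which defines this lineage together with *Olig1*, was at 0, 0.174 and 0 CPM in the controls and between 0.567 and 3.30 CPM in the others. The 5 choroid plexus markers summed to 0.382 to 1.74 CPM against 7.75 to 12.8 CPM, with 3 of 3 tested called higher. The remaining markers of this list and of the oligodendrocyte precursor list were too low to be tested. Those tested had 0 to 7 counts in each control and passed the filter on low counts only through the libraries labelled Sox9. They could therefore only be called higher. The 6 endothelial markers summed to 3.15 to 11.1 CPM against 13.6 to 36.8 CPM, with 2 of 5 called higher, and the 6 mural and meningeal markers to 7.73 to 8.69 CPM against 11.1 to 22.4 CPM, with 1 of 5 called higher. The ranges of microglial (8.32 to 29.6 CPM against 11.7 to 50.7 CPM) and erythroid markers (1.82 to 24.4 CPM against 13.9 to 92.4 CPM) overlapped between the groups, with 1 of 6 called higher in each. Of the astrocyte markers, *S100b* was called higher and *Aldh1l1* lower, and the list summed to 26.2 to 53.0 CPM in the controls against 12.9 to 19.9 CPM. The cells were sorted for high RFP, which needs electroporation and Cre recombination. Whether cells that were not electroporated passed this gate was not tested. The part of these cell types in the level of *Cdkn1c* was not tested. In sorted cells measured in bulk, more or fewer cells of a type and more or less RNA per cell cannot be told apart.

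*Cdkn1b* (ENSMUSG00000003031, chr6:134920401-134925513, plus strand) encodes p27, the other CIP/KIP member of the set. Its level was 363, 450 and 449 CPM in the controls and 230, 330, 254 and 364 CPM in the libraries labelled Sox9. Of the latter, 3 were below every control, while replicate 4 was level with control replicate 1, so the groups overlapped. The log2 fold change was -0.52 (SE 0.15) and missed the threshold (edgeR adjusted p = 0.0193). It passed at -0.60 with DESeq2 (adjusted p = 0.00519) and at -0.60 in edgeR without a filter on low counts (adjusted p = 0.000206). It was -0.27 with cyclic loess normalization (adjusted p = 0.261), -0.33 with only the genes at the higher level (adjusted p = 0.225) and -0.38 with at least 10 counts in every library (adjusted p = 0.121).

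Within a library, the proportion of both CIP/KIP transcripts of the set, which leaves out *Cdkn1a*, differed between the groups. Per kilobase of exon, *Cdkn1c* made up 17.6, 14.0 and 16.9% of the summed level of *Cdkn1b* and *Cdkn1c* in the controls and 62.8, 51.4, 47.3 and 41.4% in those labelled Sox9. The groups did not overlap, with means of 16.2 ± 1.90% (SD, n = 3) and 50.7 ± 9.05% (SD, n = 4), and among the libraries labelled Sox9 the share was highest in replicate 1 and lowest in replicate 4. The sum of both was 96.9, 115 and 119 CPM per kb in the controls and 136, 149, 106 and 136 CPM per kb in the others, so the sums overlapped. The shares and ratios here are descriptions by library, for which no test was run, and do not depend on the scaling between libraries.

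*Ccnd2* (ENSMUSG00000000184, chr6:127125162-127152193, minus strand) encodes cyclin D2. Its level was 313, 497 and 388 CPM in the controls and 223, 215, 138 and 157 CPM in the libraries labelled Sox9. Every library labelled Sox9 was below every control, with control replicate 2 highest and Sox9 replicate 3 lowest. The means were 400 ± 93.0 CPM (SD, n = 3) and 183 ± 42.1 CPM (SD, n = 4), and the log2 fold change was -1.12 (SE 0.18, edgeR adjusted p = 0.000726). Between 3270 and 5725 counts in the controls and 750 and 2273 in the others lay behind these values. Of the 8691 protein-coding genes at the higher level, 1.96% had a lower log2 fold change. *Ccnd2* shares 368 exonic bases with the antisense gene *9330179D12Rik*, which had 96 counts over all libraries against 18697 for *Ccnd2*. It also shares 372 with the antisense gene *Gm43126*, which has no row in the count table used here.

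The other cyclins of the family were far less abundant and were not called. *Ccnd1* (ENSMUSG00000070348, chr7:144929931-144939925, minus strand), the cyclin D1 gene, was at 7.17, 8.602 and 7.22 CPM in the controls and 11.1, 8.22, 8.94 and 10.7 CPM in the libraries labelled Sox9 (log2 fold change 0.34, SE 0.24, adjusted p = 0.292). *Ccnd3* (ENSMUSG00000034165, chr17:47505051-47599691, plus strand), the cyclin D3 gene, was at 4.30, 3.74 and 2.44 CPM against 4.81, 5.29, 6.71 and 4.61 CPM (log2 fold change 0.62, SE 0.32, adjusted p = 0.155), and the log2 fold change was 0.22 with cyclic loess normalization (adjusted p = 0.704). The groups overlapped for *Ccnd1* and did not for *Ccnd3*, which rested on 22 to 60 counts per library. Both overlap a gene on the opposite strand with more counts than their own, *Ccnd1* the gene *LTO1* by 1100 exonic bases and *Ccnd3* the gene *Bysl* by 361 exonic bases, so their values are uncertain if strand was not used.

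Per kilobase of exon, the summed cyclin D level was 35.2, 55.1 and 43.1 CPM per kb in the controls and 26.6, 25.2, 17.3 and 19.5 CPM per kb in the libraries labelled Sox9. The groups did not overlap, with means of 44.5 ± 10.02 (SD, n = 3) and 22.2 ± 4.46 CPM per kb (SD, n = 4). *Ccnd2* made up 95.3 ± 0.907% of this sum in the controls and 87.5 ± 2.84% in the others, again without overlap. The share of *Ccnd1* was 3.73 ± 0.525% against 9.60 ± 2.13%, and that of *Ccnd3* 0.936 ± 0.399% against 2.89 ± 1.05%. *Ccnd2* was the main D-type cyclin transcript in all 7 libraries.

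*Cdk6* (ENSMUSG00000040274, chr5:3341485-3531008, plus strand) encodes a cyclin D-dependent kinase. Its level was 104, 227 and 158 CPM in the controls and 63.2, 93.5, 36.4 and 75.3 CPM in the libraries labelled Sox9. The groups did not overlap, but the highest library was 2.19-fold above the lowest in the controls and 2.57-fold in the others, with control replicate 2 highest and Sox9 replicate 3 lowest, as for *Ccnd2*. The means were 163 ± 61.6 CPM (SD, n = 3) and 67.1 ± 24.0 CPM (SD, n = 4), and the log2 fold change was -1.28 (SE 0.27, edgeR adjusted p = 0.00358). The call was lost without control replicate 2 (log2 fold change -0.96, adjusted p = 0.0199) and without Sox9 replicate 1 (-1.23, adjusted p = 0.0103). It was also lost with cyclic loess normalization and limma (-1.04, adjusted p = 0.0334) and in 3 further settings, while the value stayed below 0 in all 17 other settings.

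*Cdk4* (ENSMUSG00000006728, chr10:127063534-127067920, plus strand), whose kinase acts with the same cyclins, was the most abundant member per length in both groups. Its level was 1029, 1068 and 1062 CPM in the controls and 791, 890, 776 and 817 CPM in the libraries labelled Sox9. The groups did not overlap, and the spread within the controls was narrow. The log2 fold change was -0.36 (SE 0.10, edgeR adjusted p = 0.0147), which missed the threshold. Of the protein-coding genes at the higher level, whose median was -0.20, 24.0% had a lower log2 fold change. *Cdk4* passed with DESeq2 (-0.45, adjusted p = 0.00153) and without a filter (-0.45, adjusted p = 0.00543). It was at -0.18 with only the genes at the higher level (adjusted p = 0.271) and at -0.09 with cyclic loess normalization. *Cdk4* shares 641 exonic bases with *Tspan31* on the opposite strand, which had 9254 counts in all against 59501.

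*Cdk6* made up 2.29, 4.70 and 3.34% of the *Cdk4* and *Cdk6* sum per kilobase of exon in the controls and 1.82, 2.38, 1.08 and 2.10% in the libraries labelled Sox9, so the shares overlapped. Without correction for length the mean share of *Cdk6* was 13.2% in the controls and 7.46% in the others. The ratio of the kinase sum to the CIP/KIP sum was 3.35, 3.00 and 2.85 in the controls and 1.82, 1.88, 2.28 and 1.88 in the others, without overlap. The ratio of the CIP/KIP sum to the cyclin D sum was 2.75, 2.08 and 2.75 in the controls and 5.11, 5.92, 6.11 and 6.99 in the others, also without overlap. The ratio of *Cdkn1b* to *Ccnd2* overlapped, at 2.40, 1.87 and 2.39 in the controls and 2.13, 3.18, 3.80 and 4.78 in the others. The ratio of *Cdkn1c* to *Ccnd2* was 0.512, 0.305 and 0.487 in the controls. In the libraries labelled Sox9 it was 3.60, 3.35, 3.41 and 3.38, although both genes varied among these libraries. These genes were called in opposite directions. The CIP/KIP sum includes *Cdkn1c*, and the cyclin D sum is mostly *Ccnd2*. The ratios with these sums therefore rest largely on the same calls and are not separate results.

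**Figure D2:**
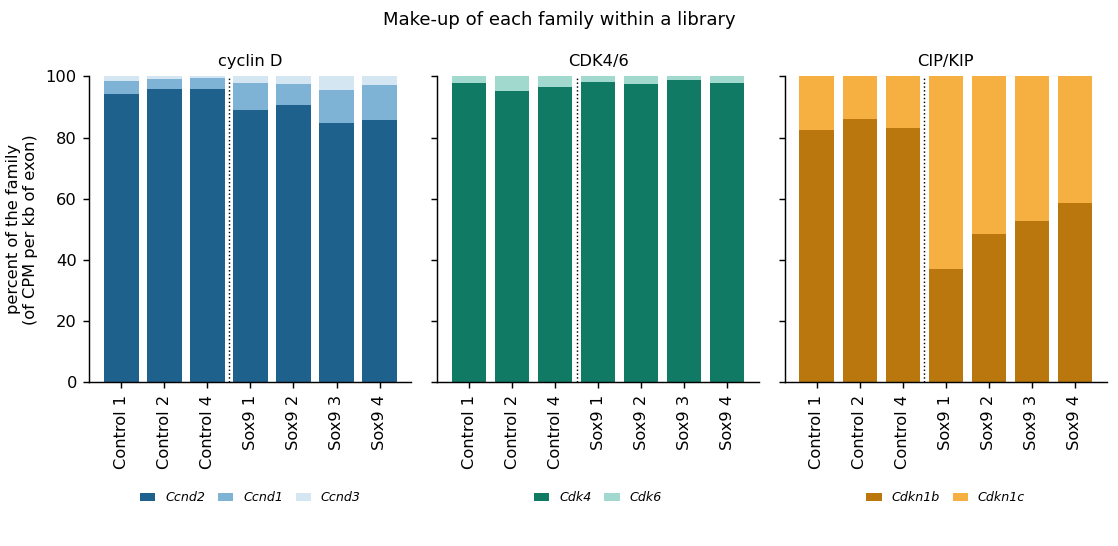
Percent of each member in the summed CPM per kilobase of exon of its family, in each of the 3 control libraries and the 4 libraries labelled Sox9, separated by a dotted line. *Cdkn1c* takes 14.0 to 17.6% of the *Cdkn1b* and *Cdkn1c* sum in the controls and 41.4 to 62.8% in the others, and the bars of *Cdk4* and *Cdk6* overlap between the groups.

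The INK4 genes did not pass the test. *Cdkn2d* (ENSMUSG00000096472, chr9:21288410-21291407, minus strand), which encodes the INK4 protein p19, was at 123, 142 and 126 CPM in the controls and 111, 113, 119 and 95.4 CPM in the libraries labelled Sox9. The groups did not overlap, yet the difference was small (log2 fold change -0.25, SE 0.12, adjusted p = 0.123) and close to the median of -0.20 of protein-coding genes at its level. It was -0.13 without Sox9 replicate 4 and -0.01 with cyclic loess normalization. *Cdkn2c* (ENSMUSG00000028551, chr4:109660876-109667189, minus strand), which encodes p18, had 10, 18 and 17 counts in the controls and 7, 6, 8 and 3 counts in the others. In CPM, 0.956, 1.56 and 1.73 stood against 0.961, 0.567, 0.894 and 0.629 (log2 fold change -0.88, SE 0.48, adjusted p = 0.174), and the groups overlapped. With cyclic loess normalization *Cdkn2c* passed the threshold, at -2.02 (adjusted p = 0.00501). *Cdkn2d* made up 99.4 ± 0.173% of the summed level of both in the controls and 99.6 ± 0.0906% in the others.

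*Rb1* (ENSMUSG00000022105, chr14:73183673-73325822, minus strand), the substrate of these kinases, was at 11.8, 12.3 and 15.0 CPM in the controls and 13.05, 12.3, 12.1 and 19.3 CPM in the libraries labelled Sox9. The groups overlapped, and the log2 fold change was 0.11 (SE 0.22, adjusted p = 0.737). Without Sox9 replicate 4, the library with the highest level, it was -0.00. *Rb1* shares 488 exonic bases with *Rcbtb2* and 408 with *Lpar6* on the opposite strand. These had 3248 and 1045 counts over all libraries against 836 for *Rb1*, so its values too are uncertain if strand was not used.

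**Figure D3:**
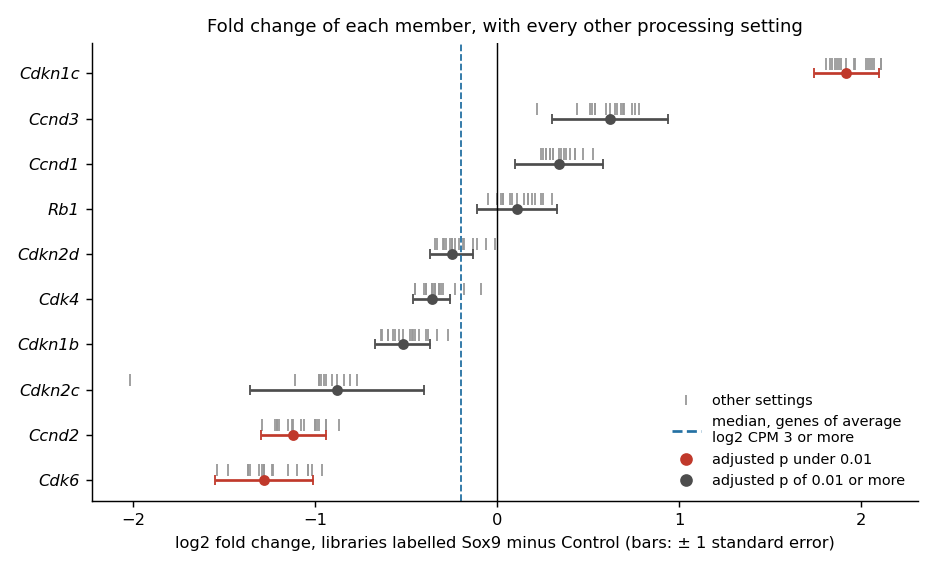
Log2 fold change of each member, libraries labelled Sox9 minus control, with bars of 1 standard error, grey ticks for the other settings tried and a dashed line at the median of the protein-coding genes whose average log2 CPM was at least 3 (-0.20). *Cdkn1c* stands at 1.92 and *Ccnd2* and *Cdk6* at -1.12 and -1.28, and the ticks of *Rb1* lie on both sides of 0.

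Per kilobase of exon, the order of the members in the controls was *Cdk4* (324 ± 6.43 CPM per kb, SD, n = 3), *Cdkn1b* (92.4 ± 10.9), *Cdkn2d* (82.8 ± 6.39), *Ccnd2* (42.5 ± 9.88), *Cdkn1c* (17.7 ± 2.10), *Cdk6* (11.6 ± 4.403), *Rb1* (2.16 ± 0.286), *Ccnd1* (1.63 ± 0.173), *Cdkn2c* (0.527 ± 0.152) and *Ccnd3* (0.398 ± 0.109). The ranges of neighbours overlapped for *Cdkn1b* and *Cdkn2d*, for *Cdkn1c* and *Cdk6*, and for *Cdkn2c* and *Ccnd3*. In the libraries labelled Sox9, *Cdkn1c* stood at 67.2 ± 16.7 CPM per kb (SD, n = 4), where its range overlapped those of *Cdkn2d* (69.7 ± 6.44) and *Cdkn1b* (64.7 ± 13.8). *Ccnd2* (19.5 ± 4.48) and *Cdk6* (4.80 ± 1.71) followed, and *Cdk6* was no longer separate from *Rb1* (2.36 ± 0.572). *Cdk4* remained the highest at 252 ± 15.6 CPM per kb, and *Ccnd3* (0.610 ± 0.108) was above *Cdkn2c* (0.284 ± 0.0723). These orders take the counts as reads on exons, which the sources used here do not state. By the deposited FPKM, scaled by gene span, *Rb1* (a control mean of 0.0837) stood below *Ccnd1* (0.698) and *Cdkn2c* (0.205) in the controls. In the libraries labelled Sox9, *Ccnd3* (0.0602) stood below *Cdkn2c* (0.130), and *Cdk6* (0.375) stood below *Ccnd1* (1.04). In the controls the FPKM mean of *Cdk6* (0.781) was only a little above that of *Ccnd1*. The span is 23.6 times the exonic length for *Rb1*, 10.8 times for *Ccnd3* and between these for *Cdk6*.

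The genes around the members were described by 8 lists of 94 genes, of which 89 were tested. Of these, 3 were called higher, 34 lower and 52 neither. The list with the most calls held the 20 E2F target genes of S-phase entry, where 17 were lower and none was higher (median log2 fold change -1.20). It was followed by the turnover genes described further on and the 12 tested later cyclins and CDKs, where 7 were lower and none was higher (median -1.14). Of 10 E2F and DP factors 1 was lower (median -0.44), and of 9 genes of pocket proteins and the MuvB/DREAM complex 1 was higher (median -0.08). These counts stand beside the 11.3% of all genes called higher and the 3.43% called lower, and no list was tested as a set. Without control replicate 2 the lists held 22 lower genes in place of 34. The later cyclins and CDKs held 4 lower genes in place of 7 without control replicate 2 or 4 or without Sox9 replicate 2 or 4.

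Among the E2F targets, *Rrm2*, a subunit of ribonucleotide reductase, fell by 2.29 on the log2 scale (SE 0.17, edgeR adjusted p = 7.64e-06), from 274, 491 and 396 CPM to between 71.3 and 96.5 CPM. *Mcm3* and *Mcm2*, subunits of the replicative helicase, fell by 2.80 and 1.42, and *Cdc6*, which loads that helicase, by 2.49. The 3 targets that were not called, named here for that reason, were *Mcm6* (log2 fold change -1.25, adjusted p = 0.0121), *Gins1* (-0.37, adjusted p = 0.100) and *Orc1* (0.48, adjusted p = 0.205). Of the cyclins and kinases that act after the members, *Ccnb1* and *Ccnb2*, cyclins of mitosis, fell by 2.80 and 2.03, their partner *Cdk1* by 2.44, and *Ccne2*, a cyclin of S-phase entry, by 1.82. *E2f8*, a repressor of the E2F family, fell by 1.26 (adjusted p = 0.00968). That call was lost when any library but control replicate 1 was left out, and in both fits with a block for the replicate number. *Mybl2*, a MuvB partner that is itself an E2F target, was 2.18 higher on the log2 scale (SE 0.35, adjusted p = 0.000747).

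Of the 14 tested genes for the turnover of p27 and cyclin D, 6 were lower and 1 was higher, and without control replicate 2 the number lower was 2. *Skp2*, the ubiquitin ligase subunit that recognizes p27, fell by 1.12 on the log2 scale (SE 0.18, edgeR adjusted p = 0.000867), and its cofactor *Cks1b* by 1.01 and the related *Cks2* by 1.59. *Fbxo4*, another F-box gene, was 1.68 higher (SE 0.29, adjusted p = 0.00123). Of the 14 tested upstream inputs to cyclin D, *Tcf7l2*, a transcription factor of Wnt signaling, was 2.35 higher (SE 0.36, adjusted p = 0.000615), with 44.3, 88.3 and 79.1 CPM in the controls and 548, 456, 136 and 304 CPM in the others. *Gli3*, a factor of hedgehog signaling, and *Pax6*, a factor of radial glia, fell by 1.63 and 1.15, and the number lower in this list was 1 without control replicate 2 or 4 or Sox9 replicate 3 and 4 without control replicate 1. Of the other CDK inhibitors, *Cdkn3* was lower (log2 fold change -1.97, adjusted p = 0.00566). Its call was lost when any library but control replicate 1 was left out, and in both fits with a block for the replicate number. *Cdkn1a*, the p21 gene and remaining CIP/KIP member, was at 1.65 to 5.39 CPM and not called (0.24, adjusted p = 0.704). *Cdkn2a* and *Cdkn2b* were too low to be tested. None of the 6 genes of the CDK-activating kinase and of chaperones for CDK4 was called.

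**Figure D4:**
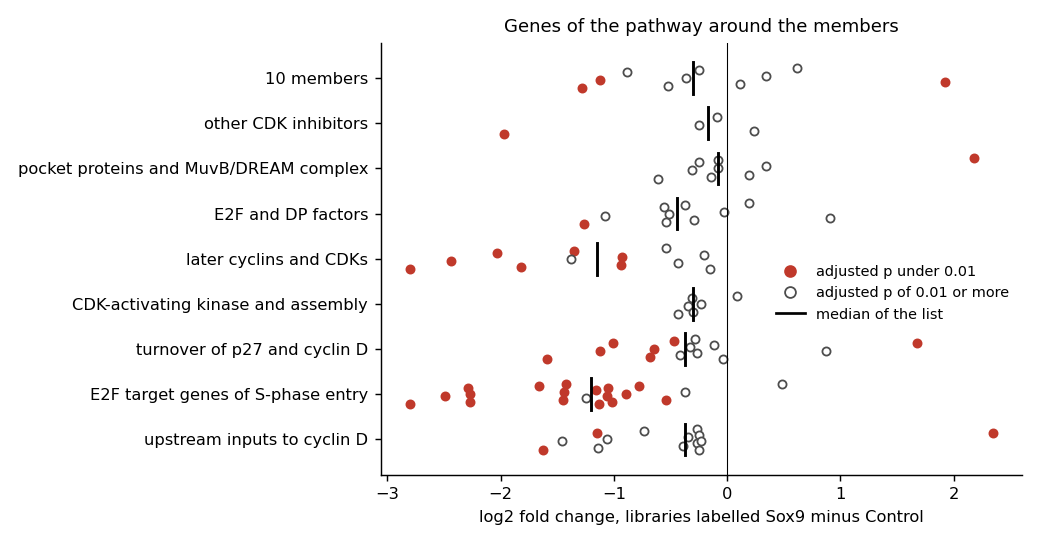
Log2 fold change (libraries labelled Sox9 minus control) of each tested gene in 8 lists around the members and of the 10 members, with filled red points at an adjusted p under 0.01, open points otherwise and a bar at the median of each list. The points of E2F targets and later cyclins and CDKs lie mostly below 0, with medians of -1.20 and -1.14.

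*Mki67* and the summed level of radial glia markers were lower in the libraries in which *Ccnd2* and *Cdk6* were lower. *Mki67*, a marker of cycling cells, was at 19.4, 43.3 and 33.9 CPM in the controls and 10.9, 11.1, 9.39 and 11.3 CPM in the libraries labelled Sox9 (log2 fold change -1.60, SE 0.24, edgeR adjusted p = 0.000511). The summed level of the E2F targets was 1590, 2430 and 1950 CPM in the controls and 837, 880, 803 and 785 CPM in the others. The summed level of the radial glia markers was 551, 1070 and 906 CPM in the controls and 403, 400, 263 and 398 CPM in the others. Of these markers 4 of 8 were called lower, beside 3.43% of all genes tested and 5.85% of protein-coding genes at the higher level, while *Hes1*, *Hes5*, *Nes* and *Sox2* missed the threshold (adjusted p from 0.0142 to 0.0652). For *Mki67* and the sums of the E2F targets and radial glia markers, as for *Ccnd2* and *Cdk6*, control replicate 1 was the lowest control and control replicate 2 the highest, and Sox9 replicate 3 was the lowest of all libraries for the radial glia markers, *Ccnd2* and *Cdk6*. *Eomes*, the gene of the intermediate progenitor factor Tbr2, fell by 2.25 on the log2 scale (adjusted p = 4.87e-05). With *Btg2* (-0.81), 2 of the 6 intermediate progenitor markers were called lower, beside the same shares. Of the markers not called, *Insm1* was at -0.05 and *Neurog1* at 1.15 on the log2 scale. *Sox2* was not called (-1.01, SE 0.40, adjusted p = 0.0652), nor was any of the 8 neuronal markers, which summed to 13100 to 16100 CPM in the controls and 11700 to 13800 CPM in the others. The part of the cell type makeup in the levels of *Ccnd2* and *Cdk6* was not tested.

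The genes whose log2 CPM followed the called members most closely over the 7 libraries are given as a description, since the libraries share their groups. They were sought among the protein-coding genes at the higher level. For *Cdkn1c* they were *Padi2* (Pearson's r = 0.990), *Fam160b2* (0.985) and *Prokr2* (0.984), of which *Padi2* had a mean of 0.521 CPM in the controls and 31.6 CPM in the libraries labelled Sox9. For *Ccnd2* they were *Brcc3* (0.992), *Skp2* (0.991) and *Lca5* (0.989). For *Cdk6* they were *Smu1* (0.994), *Ednrb* (0.989) and *Atad2* (0.984).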

How the data were processed

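The authors sequenced RNA of High RFP cells from 7 sorts of electroporated mouse neocortex, 3 with the control and 4 with the conditional Sox9 expression construct. cDNA was primed with poly-dT and amplified by PCR in 12 and 15 cycles without molecular identifiers, so reads are not independent molecules. The authors combined lanes, trimmed adapters with cutadapt, aligned reads with STAR (2.5.2b in the submitters' processing notes) to mm10 and quantified genes of an Ensembl release. The authors deposited raw counts per gene, unnormalized. The counting program and its use of strand and introns are not given in the sources used here. The authors also deposited FPKM, which were used only as an alternative: for 9 members they were scaled by the span of the gene (0.998 to 1.01 of it) and for *Cdkn2d* by 0.916 of it, not by its exonic length.

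The deposited counts were compared in edgeR 4.0.16 under R 4.3.3 (TMM, filterByExpr at its defaults, glmQLFTest, 16522 genes). The standard error is the log2 fold change divided by the square root of F, without its sign. Exonic lengths and positions were taken from a GENCODE annotation on GRCm38 (mm10), in which 36345 of 38124 genes were found by identifier. Groups and replicate numbers followed the titles. P-values measure the spread between libraries. The members and gene lists were chosen with earlier results of these data known. The text names all members, up to 4 called genes of each list with the smallest p, *Sox9*, *Mki67*, *Eomes* and *Sox2*, and the 3 genes most like each of the 3 members with the smallest p. Further genes were named outside this rule, after their values were seen. As markers these were *Tubb3*, *Dcx*, *Olig1*, *Olig2*, *S100b*, *Aldh1l1*, *Hes1*, *Hes5*, *Nes*, *Btg2*, *Insm1* and *Neurog1*. The others were *Mcm6*, *Gins1* and *Orc1* as targets not called, *Cdkn1a*, *Cdkn2a* and *Cdkn2b* as inhibitors, and genes that overlap members. On simulated data with the same library sizes (15540 genes), 43 of 93 genes changed 2-fold (46.2%) and 80 of 89 changed 4-fold (89.9%) were called, and 1 of 15358 unchanged genes. The simulation used the typical spread at each expression level, not that of each gene, and changed 200 genes in balanced directions. Its rates need not hold for the real data. Alternatives were DESeq2 1.42.0, its size factors in edgeR, cyclic loess with limma 3.58.1, other filters, glmTreat against 1.5-fold, a replicate block, another threshold and leaving out each library.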

Additional observations from a re-analysis of the deposited data

Results flagged for a closer look

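*Rb1* was at 19.3 CPM in Sox9 replicate 4, far above the other 3 libraries of its group at 12.1 to 13.05 CPM. The gap to the nearest library was 0.865 of the range of the group, above the critical value of 0.829 for 4 samples. It was the only one of 14 groups of 4 libraries tested in which a library stood apart in this way, and chance gives such a value in about 1 of 20 groups. This library had the fewest counts, 4429704, of which 92 fell on *Rb1*.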

How the results depend on the processing

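*Cdkn1c* was called higher in all 17 other settings, and *Ccnd2* lower in 16 of 17, the exception being glmTreat against a 1.5-fold change (-1.12, adjusted p = 0.0127). *Cdk6* was called in 11 of 17. It missed the threshold with cyclic loess (-1.04, adjusted p = 0.0334), at least 10 counts in every library (-1.15, adjusted p = 0.0107), glmTreat (-1.28, adjusted p = 0.0235), and with only the genes of an average log2 CPM of 3 or more refitted, a setting chosen after seeing the data (-1.10, adjusted p = 0.0325). Without 1 library in turn, its log2 fold change ranged from -1.54 to -0.96. *Cdk4* (-0.45 with DESeq2 and -0.45 without a filter, adjusted p = 0.00153 and 0.00543), *Cdkn1b* (-0.60 in both, adjusted p = 0.00519 and 0.000206) and *Cdkn2c* (-2.02 with cyclic loess, adjusted p = 0.00501) passed there, and *Cdkn1b* also with the replicate block by descriptions but not by titles (-0.47, adjusted p = 0.0181). *Rb1* turned to -0.05 with the replicate block by descriptions and lay between -0.00 and 0.24 without 1 library, lowest without Sox9 replicate 4. The cause of these changes was not tested.

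The count of members called lower, 2, became 4 with DESeq2, 4 without a filter, 4 at an adjusted p under 0.05, 1 with at least 10 counts, 1 with the level setting and 0 with glmTreat, and 1 to 2 without 1 library. Over all genes, the 1862 higher became 319 with cyclic loess, 638 with at least 10 counts, 889 with glmTreat, 164 with the level setting and 3616 at 0.05, and 827 to 1590 without 1 library. The 567 lower became 1421 with DESeq2, 243 with cyclic loess, 1452 without a filter, 204 with at least 10 counts, 143 with glmTreat, 143 with the level setting and 1787 at 0.05, and 208 to 475 without 1 library. The higher share of these calls was 76.7%, against 59.3% with DESeq2, 64.7% without a filter, 56.8% with cyclic loess and 53.4% with the level setting. It was 86.1% with glmTreat and 69.4 to 83.9% without 1 library. The filters of at least 10 counts and of the level moved the median log2 fold change of the genes they share with the reported fit by 0.138 and 0.188, and the directions of *Cdkn1c*, *Ccnd2* and *Cdk6* held relative to that shift. The 34 lower genes of the lists became 22 with at least 10 counts, 15 with glmTreat and 21 with the level setting, and 22 to 33 without 1 library, fewest without control replicate 2.

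Same-numbered libraries did not deviate together (correlations -0.141, 0.159 and -0.0427 by titles), so the numbers were not taken as pairs. A replicate block by titles gave 400 higher and 218 lower genes and 22 lower list genes, and one by descriptions 1034 and 353, with *Cdkn1b* at -0.64 (adjusted p = 0.00557).

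The deposited FPKM, scaled by gene span, gave control and Sox9-labelled means of 0.698 and 1.04 for *Ccnd1*, 13.4 and 7.22 for *Ccnd2*, 0.0333 and 0.0602 for *Ccnd3*, 219 and 199 for *Cdk4*, 0.781 and 0.375 for *Cdk6*, 0.205 and 0.130 for *Cdkn2c*, 43.2 and 42.6 for *Cdkn2d*, and 0.0837 and 0.106 for *Rb1*, and control means of 75.1 for *Cdkn1b* and 12.2 for *Cdkn1c*. Without length correction the family shares were 1.91 and 5.07% for *Ccnd1*, 97.2 and 92.1% for *Ccnd2*, 13.2 and 7.46% for *Cdk6*, 7.96 and 31.98% for *Cdkn1c*, and 1.07 and 0.690% for *Cdkn2c*. At 3 to 18 counts per library, *Cdkn2c* was near the limit of what these depths can show.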
